A study of Mus musculus with 4 samples.

Results

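The 10 genes of the disease-associated microglia programme described here were followed through RNA-seq of cultured mouse microglia. These were *Spp1*, *Apoe*, *Trem2*, *Tyrobp*, *Lpl*, *Cst7*, *Itgax*, *Clec7a*, *Axl* and *Gpnmb*, chosen by name, and all 10 were found once among the 54532 annotated genes of both deposited count tables. Primary microglia were grown from the cortex of male CD1 mouse pups in the first days after birth, as mixed glia in medium with GM-CSF, and freed of astrocytes by mild trypsin. The cells were then held in serum-free medium with IL-34, TGFβ2, GM-CSF and cholesterol, so all libraries shared these factors. Treated cultures received 1 μM EGCG, the green tea flavan-3-ol (−)-epigallocatechin gallate, for 24 h, and control cultures received the solvent DMSO for 24 h (vehicle). There were 2 biological replicates of each treatment, and each replicate number was deposited as 1 table holding its vehicle and its EGCG library. The study asked how EGCG affects gene expression in these cells, which is followed here for this programme. The libraries held 33805071 to 54970300 counts, and the 10 genes took 6.64 and 6.35% of the counts on annotated genes in vehicle and EGCG of replicate 1, and 4.16 and 4.31% in replicate 2.

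Disease-associated microglia are a state first described around amyloid plaques, in which homeostatic genes are lowered while genes of lipid handling, lysosomes and phagocytosis are raised. Entry is described in steps, an early one that does not need the lipid receptor TREM2 and a later one that does. TREM2 has no signalling tail of its own and works through the adaptor TYROBP (DAP12), whose phosphorylated motif recruits the kinase SYK. *Apoe* encodes a lipid carrier and TREM2 ligand, *Lpl* lipoprotein lipase, *Clec7a* the β-glucan receptor dectin-1, *Axl* a receptor tyrosine kinase for GAS6 on dying cells, *Itgax* the integrin chain CD11c, *Cst7* the cathepsin inhibitor cystatin F, *Gpnmb* a lysosomal and surface glycoprotein, and *Spp1* the secreted matrix protein osteopontin.

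The members lie on 6 chromosomes of GRCm38, with *Apoe*, *Tyrobp*, *Itgax* and *Axl* on chromosome 7, *Clec7a* and *Gpnmb* on chromosome 6, and *Spp1*, *Trem2*, *Lpl* and *Cst7* on chromosomes 5, 17, 8 and 2. RefSeq promoters were matched for 8 of the 10, all but *Tyrobp* and *Lpl*. In windows from 250 bases before to 50 bases after the start site, the AP-1 motif TGANTCA, searched on both strands like the others, occurred in 4 of these 8 and in 7.81% of 32851 mouse promoters. It began 9 bases before the start site in *Trem2*, 6 before it in *Cst7*, 56 before it in *Itgax* and at base 9 of the transcript in *Gpnmb*. The PU.1 motif GAGGAAGT, found in 3.20% of promoters, occurred in *Spp1* alone, 113 bases before the start site, and the M-box TCANGTGA, found in 4.18%, in *Cst7* alone, 242 bases before it. No pair of these motifs overlapped in a member. The 4 promoters printed are those of *Spp1*, *Gpnmb* and *Cst7*, whose levels differed widely between replicates and which hold different motifs, and of *Trem2*, the receptor of the programme. They run 5′ to 3′ from 250 bases before the start site to base 30 of the transcript (GRCm38.p6, plus strand), with motif letters in capitals.
Spp1, chr5:104434861-104435140: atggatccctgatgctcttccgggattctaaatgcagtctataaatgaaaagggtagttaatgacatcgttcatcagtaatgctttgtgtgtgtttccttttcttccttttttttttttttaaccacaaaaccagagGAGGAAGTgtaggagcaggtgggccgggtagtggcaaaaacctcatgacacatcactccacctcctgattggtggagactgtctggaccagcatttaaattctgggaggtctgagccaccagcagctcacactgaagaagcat
Gpnmb, chr6:49036268-49036547: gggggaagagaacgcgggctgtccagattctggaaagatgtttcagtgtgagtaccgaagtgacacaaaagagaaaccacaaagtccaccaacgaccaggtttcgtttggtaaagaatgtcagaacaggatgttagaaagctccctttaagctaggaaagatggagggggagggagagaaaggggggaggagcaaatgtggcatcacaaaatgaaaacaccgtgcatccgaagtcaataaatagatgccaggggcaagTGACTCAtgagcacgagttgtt
Cst7, chr2:150570165-150570444: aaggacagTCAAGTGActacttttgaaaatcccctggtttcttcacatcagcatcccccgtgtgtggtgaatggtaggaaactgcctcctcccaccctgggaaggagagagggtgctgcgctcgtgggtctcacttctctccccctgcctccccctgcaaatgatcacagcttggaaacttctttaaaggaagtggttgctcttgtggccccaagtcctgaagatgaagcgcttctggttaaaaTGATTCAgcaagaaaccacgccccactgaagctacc
Trem2, chr17:48346151-48346430: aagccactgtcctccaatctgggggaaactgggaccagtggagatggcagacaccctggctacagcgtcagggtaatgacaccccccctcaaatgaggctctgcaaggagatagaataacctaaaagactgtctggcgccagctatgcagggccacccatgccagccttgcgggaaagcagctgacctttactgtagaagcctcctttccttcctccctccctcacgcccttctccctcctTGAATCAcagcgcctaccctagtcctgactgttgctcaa
Capitals mark PU.1 in *Spp1*, AP-1 in *Gpnmb* and *Trem2*, and the M-box and then AP-1 in *Cst7*. A match is a run of letters and was not tested for binding.

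Every member was read in all 4 libraries. Levels are CPM, the counts of a gene per 1000000 counts of its library, scaled by TMM factors, which correct for library composition, and levels of different genes are compared only per kilobase. The plot of CPM by library shows the 10 genes together.

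**Figure D1:**
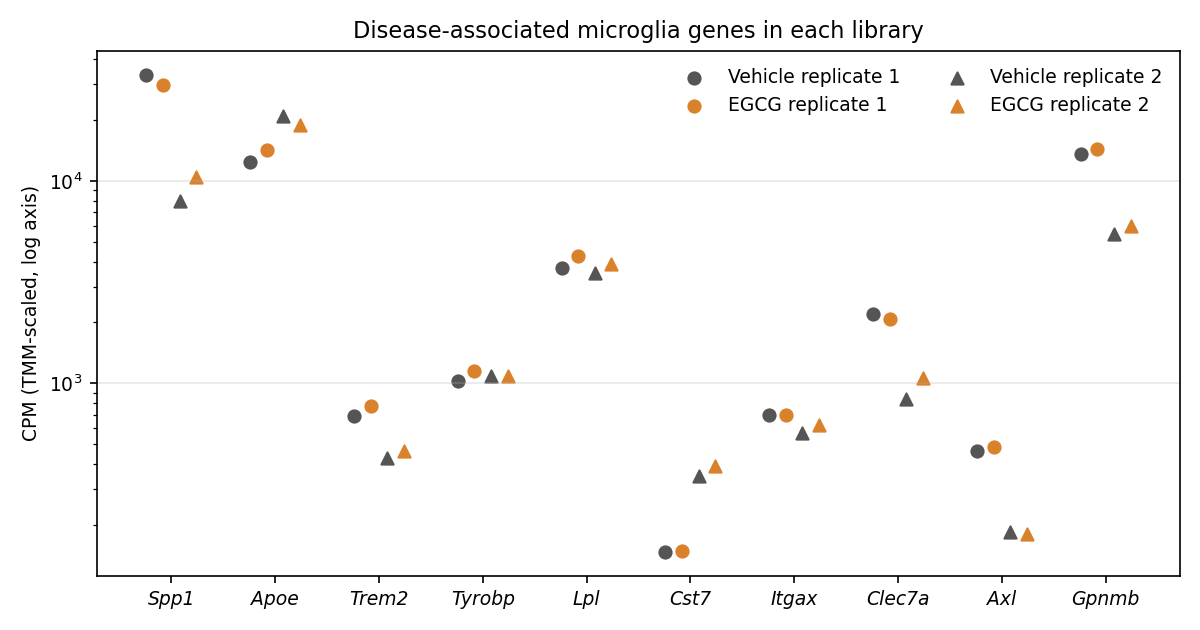
Level of each member in each library, in CPM on a log axis (circles, replicate 1; triangles, replicate 2; grey, vehicle; orange, EGCG). For *Spp1*, *Clec7a*, *Axl* and *Gpnmb* both circles lie far above both triangles, for *Cst7* far below them, and the 2 colours lie close together within a replicate number.

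The receptor and its adaptor were close between treatments within a replicate number. *Trem2* was at 688 CPM in vehicle and 776 in EGCG of replicate 1, and at 430 and 467 in replicate 2. *Tyrobp* was at 1023 and 1147 CPM in vehicle and EGCG of replicate 1 and at 1091 and 1093 in replicate 2. *Trem2* was thus higher in both libraries of replicate 1, with vehicle and EGCG overlapping across numbers. *Tyrobp* hardly separated the replicates, and its EGCG libraries were both above its vehicle libraries, by a very narrow margin in replicate 2.

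Of the lipid genes, *Apoe* was at 12410 CPM in vehicle and 14278 in EGCG of replicate 1, and at 20867 and 18765 in replicate 2. *Lpl* was at 3731 and 4252 CPM in replicate 1 and at 3503 and 3902 in replicate 2. *Apoe* was higher in both libraries of replicate 2 and its treatments overlapped. *Lpl* was higher in both EGCG libraries than in both vehicle libraries. *Tyrobp* and *Lpl* were the only members whose groups did not overlap, 2 of 10, against 11.9% of all tested genes. For *Tyrobp* this depended on the TMM scaling, since with total counts its log2 difference in replicate 2 was -0.0066.

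The surface receptors *Clec7a* and *Axl* separated the replicates. *Clec7a* was at 2212 CPM in vehicle and 2074 in EGCG of replicate 1 and at 843 and 1065 in replicate 2. *Axl* was at 463 and 487 CPM in replicate 1 and at 184 and 180 in replicate 2. *Itgax*, the CD11c chain, was at 701 and 702 CPM in replicate 1 and at 569 and 621 in replicate 2. All 3 were lower in both libraries of replicate 2, and for each the EGCG and vehicle libraries overlapped.

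Next come osteopontin, the glycoprotein *Gpnmb* and the inhibitor cystatin F. *Spp1* was at 33458 CPM in vehicle and 29787 in EGCG of replicate 1, and at 7919 and 10418 in replicate 2. *Gpnmb* was at 13513 and 14289 CPM in replicate 1 and at 5443 and 5955 in replicate 2. *Cst7* ran the other way, at 148 and 149 CPM in replicate 1 and 351 and 393 in replicate 2. *Spp1* alone took 3.25 and 2.79% of counts in vehicle and EGCG of replicate 1 and 0.800 and 1.05% in replicate 2, and *Apoe* took 1.21, 1.34, 2.11 and 1.89% in the same order. Reads of *Spp1* could be shared with Gm42793, an unclassified transcript on the same strand that overlaps it by 1252 bases, which held 216 to 745 counts per library.

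Per kilobase of the gene lengths given in the files, *Spp1* and *Apoe* had the highest levels of the 10 in every library. *Spp1* was first in replicate 1, with 20302 and 18075 CPM per kilobase in vehicle and EGCG, where *Apoe* had 5805 and 6678. The order was turned in replicate 2, with 9760 and 8777 for *Apoe* and 4805 and 6321 for *Spp1*. Among the 13811 tested genes *Spp1* ranked 2nd to 5th and *Apoe* 3rd to 5th by this measure. *Tyrobp* and *Gpnmb* took the 3rd and 4th places among the members in all libraries, *Gpnmb* ahead in replicate 1 and *Tyrobp* in replicate 2. *Axl* was last in every library, at 92.0 and 96.7 in replicate 1 and 36.6 and 35.9 in replicate 2.

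The order of the middle genes depended on which length was used. The files give *Trem2* 4946 bases and *Clec7a* 2638, whereas their longest principal transcripts in GENCODE M21 have 1088 and 707. With the file lengths *Trem2* stood at 139 and 157 CPM per kilobase in vehicle and EGCG of replicate 1, beside 146 and 146 for *Itgax*. With the principal transcripts, tried once the values were known, *Trem2* stood at 633 and 713 and *Itgax* at 173 and 174. *Trem2* was 9th, 7th, 9th and 9th of the 10 in vehicle 1, EGCG 1, vehicle 2 and EGCG 2 with the file lengths and 7th in all 4 with the other. *Spp1*, *Apoe* and *Axl* kept their places under both lengths.

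**Figure D2:**
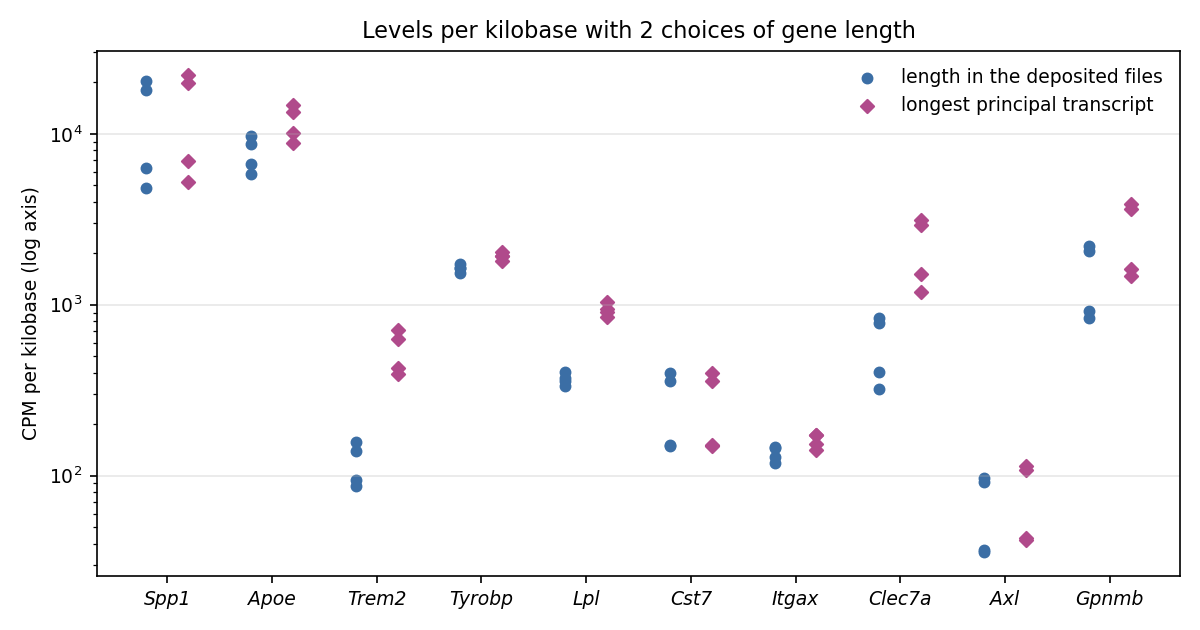
Level of each member in CPM per kilobase on a log axis, with 1 point per library, by the gene length in the files (blue circles) and by the longest principal transcript (purple diamonds). *Trem2* and *Clec7a* move furthest upwards between the 2 lengths, and *Cst7*, whose lengths are equal, does not move.

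Within each replicate number the 10 genes were close to their vehicle levels in the EGCG library. EGCG minus vehicle on the log2 CPM scale ran from -0.17 (*Spp1*) to 0.20 (*Apoe*) in replicate 1 and from -0.15 (*Apoe*) to 0.40 (*Spp1*) in replicate 2. The median size was 0.13 in replicate 1 and 0.14 in replicate 2, against 0.12 and 0.10 for all tested genes and 0.09 and 0.06 for the 619 genes at least as abundant in CPM as the least abundant member. In both replicates EGCG was above vehicle for 6 members, *Trem2*, *Tyrobp*, *Lpl*, *Cst7*, *Itgax* and *Gpnmb*, while 0 were lower in both, and *Spp1*, *Apoe*, *Clec7a* and *Axl* had opposite signs. Over all tested genes 29.9% were higher in both, 20.6% lower in both and 49.2% opposite. The count depended on scaling, since differences of *Tyrobp* in replicate 2 and of *Itgax* and *Cst7* in replicate 1 were under 0.01. With total counts in place of TMM factors, a setting added after seeing the data, 3 members (*Trem2*, *Lpl* and *Gpnmb*) were higher in both, 0 lower in both and 7 opposite, against 21, 30.4 and 48.2% of all tested genes. Across all 13811 genes the EGCG difference of replicate 1 correlated with that of replicate 2 at r = -0.05. Genes are not independent of each other, and no p is given.

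The largest difference of each replicate number, *Apoe* in replicate 1 and *Spp1* in replicate 2, had the opposite sign in the other. *Spp1* was 0.89-fold of vehicle in replicate 1 and 1.32-fold in replicate 2, *Apoe* was 1.15-fold and 0.90-fold, and *Clec7a* 0.94-fold and 1.26-fold. *Trem2* was 1.13-fold and 1.09-fold of vehicle, and *Lpl* 1.14-fold and 1.11-fold, so these differences were small and alike in both replicates.

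**Figure D3:**
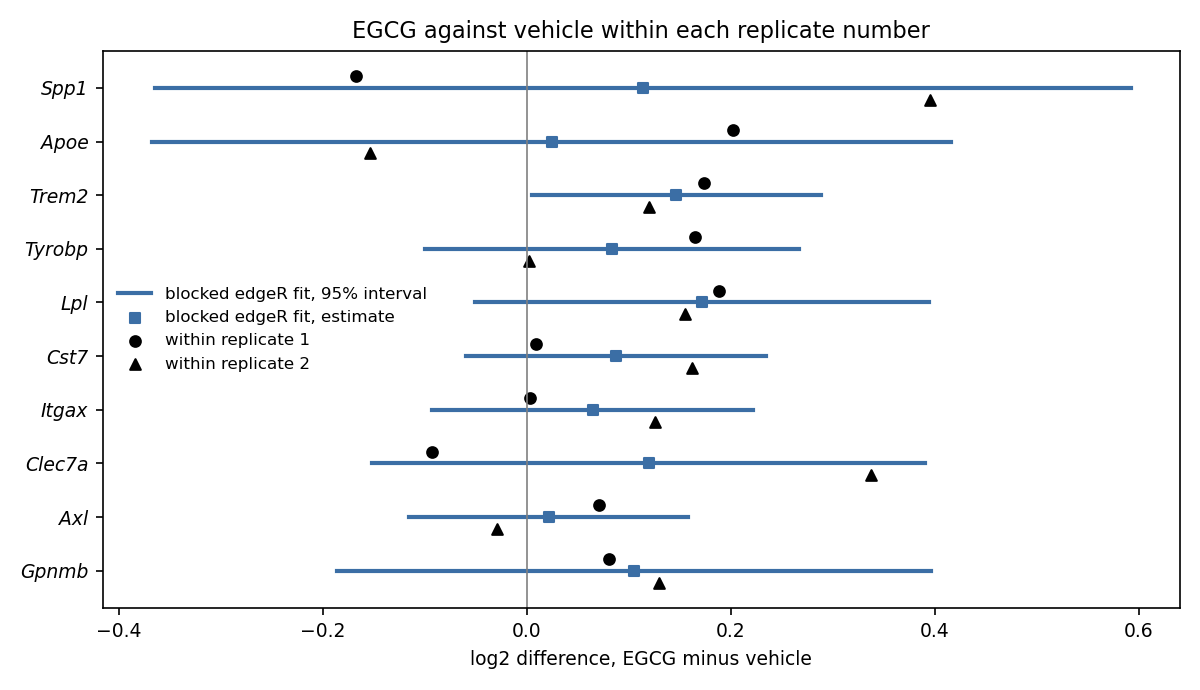
EGCG minus vehicle on the log2 scale for each member within replicate 1 (circles) and replicate 2 (triangles), with the estimate (square) and 95% interval (bar) of the edgeR fit blocked on replicate number. The bar of *Trem2* alone lies wholly above 0, and those of *Spp1* and *Apoe* are the widest, with their circle and triangle on opposite sides of 0.

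In the comparison of 2 EGCG with 2 vehicle libraries without regard to the replicate number, 0 of the 9 members tested passed an unadjusted p of 0.05 by the quasi-likelihood test of edgeR, which 0.116% of genes did. *Clec7a* was left out of that fit because its annotated class is polymorphic pseudogene, not protein-coding, and over all gene classes 0 of 10 members passed, against 0.195% of genes. The fitted log2 fold changes ran from -0.04 (SE 0.93, *Spp1*) to 0.17 (SE 0.22, *Lpl*), with a median of 0.08 against 0.01 for all genes. The intervals were wide. For *Spp1* the 95% interval ran from 0.159- to 5.93-fold, for *Gpnmb* from 0.282- to 4.04-fold, and for *Tyrobp*, the narrowest, from 0.756- to 1.48-fold.

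With the replicate number as a block, which compares the libraries deposited in the same table, *Trem2* was the 1 member of 9 with an unadjusted p under 0.05, against 3.21% of genes. Its log2 fold change was 0.15 (SE 0.06, 1.11-fold, 95% interval 1.00 to 1.22), and it was higher with EGCG in 2 of 2 replicates. The edgeR Benjamini-Hochberg adjusted p over all 13811 genes was 0.995. Over all gene classes *Trem2* was likewise the 1 of 10 that passed, against 3.55% of genes. DESeq2 with the block gave 2 of 9, against 1.11% of genes: *Trem2* (0.14, SE 0.07) and *Lpl* (0.16, SE 0.06), with an adjusted p of 1.00 for both. *Lpl* did not pass in edgeR with the block (0.17, SE 0.09, 0.966- to 1.31-fold).

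No member had an adjusted p under 0.1 in edgeR without the block, edgeR with it or DESeq2 with it, where 0, 0.00724 and 0.0507% of genes did. The blocked edgeR intervals were far narrower than the unblocked ones. They ran from 0.923- to 1.12-fold for *Axl*, 0.938- to 1.17-fold for *Itgax*, 0.959- to 1.18-fold for *Cst7* and 0.933- to 1.20-fold for *Tyrobp*. They stayed wider for *Spp1* (0.777- to 1.51-fold), *Apoe* (0.775- to 1.33-fold), *Gpnmb* (0.879- to 1.32-fold) and *Clec7a* (0.900- to 1.31-fold, all gene classes). With 2 replicates, changes within these intervals could not be told from none.

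By the median, replicates 1 and 2 differed in these genes far more than the 2 treatments did. *Lpl* ran the other way, at -0.09 and -0.12 between replicates in vehicle and EGCG libraries, and 0.19 and 0.16 between treatments in replicates 1 and 2. *Tyrobp* also differed more between treatments in replicate 1, by 0.17. The median size of the log2 difference between replicates 2 and 1 was 1.00 in vehicle and 0.85 in EGCG libraries for the 10 members, against 0.38 and 0.35 for all tested genes and 0.33 and 0.30 for the 619 abundant ones. In both treatments 7 members were lower in replicate 2, where 40.7% of tested genes were lower in both and 42.2% higher in both. *Cst7* and *Apoe* were higher, and *Tyrobp* had opposite signs (0.09 and -0.07). *Spp1*, *Axl*, *Gpnmb* and *Cst7* passed a log2 difference of 1 in the same direction in both treatments, 4 of 10, against 12% of tested genes and 10.3% of the abundant ones. There is 1 library per replicate and treatment, so these differences carry no test. In bulk RNA, a smaller share of cells of a type and less RNA per cell cannot be told apart.

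*Spp1* was 4.22-fold higher in replicate 1 among vehicle libraries and 2.86-fold higher among EGCG libraries, the widest difference of the 10. *Gpnmb* was 2.48- and 2.40-fold higher in replicate 1, *Axl* 2.52- and 2.70-fold, and *Clec7a* 2.63- and 1.95-fold. Against these, *Cst7* was 2.38- and 2.64-fold higher in replicate 2, and *Apoe* 1.68- and 1.31-fold higher. The members therefore did not move as 1 block between replicates: the receptor *Trem2* was 1.60- and 1.66-fold higher in replicate 1 while its adaptor *Tyrobp* stayed within 1.07-fold.

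**Figure D4:**
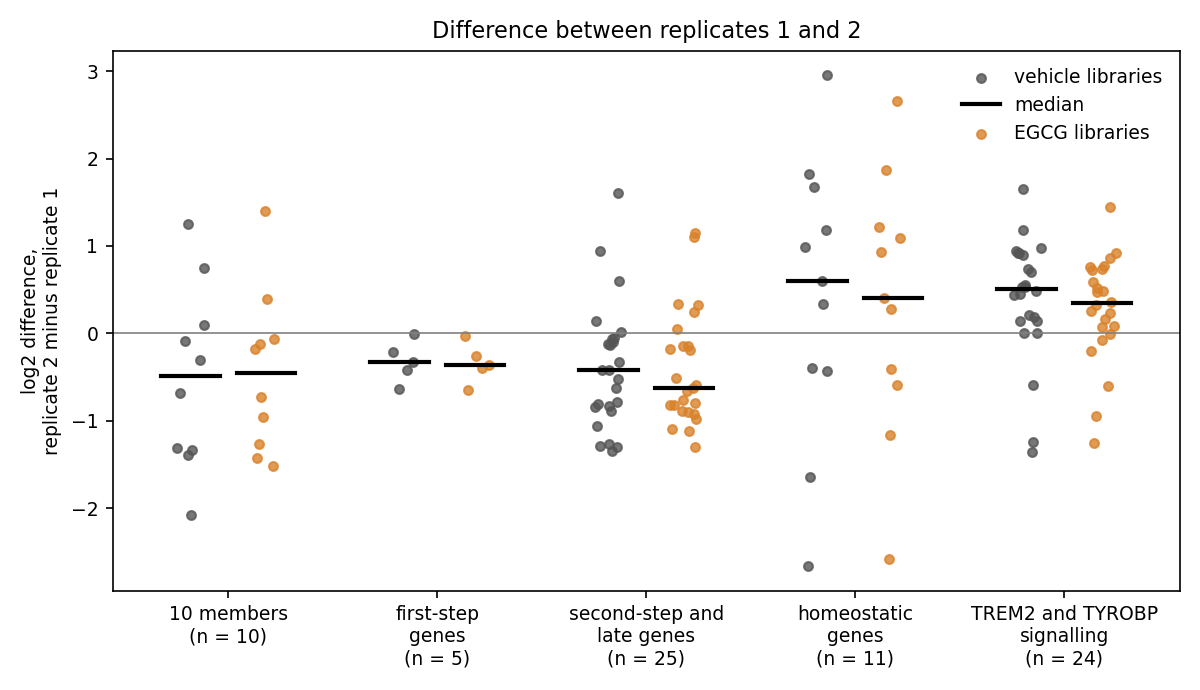
Log2 CPM difference, replicate 2 minus replicate 1, of each gene in vehicle (grey) and EGCG (orange) libraries for the 10 members and 4 gene lists, with black bars at the medians. The medians of the members, first-step genes and second-step and late genes lie below 0, and those of the homeostatic and signalling genes lie above it.

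Further genes of the same programme were taken from a list that left out the members. Of 5 first-step genes, all 5 were lower in replicate 2 in both treatments (median -0.33 in vehicle and -0.36 in EGCG libraries, against 0.00 and 0.01 for all tested genes, of which 40.7% were lower in both). Among them were *Lyz2*, the macrophage lysozyme (-0.33 and -0.36), and *B2m*, the light chain of MHC class I (-0.42 and -0.40). Of 25 second-step and late genes, 19 were lower in both, 5 higher in both and 1 mixed (medians -0.42 and -0.63), against 40.7 and 42.2% of tested genes lower and higher in both. The tetraspanin *Cd9* was at 1031 and 1113 CPM in vehicle and EGCG of replicate 1 and at 429 and 519 in replicate 2, and *Atp6v0d2*, a proton pump subunit, at 761 and 844 and then 309 and 389. *Dkk2*, a secreted WNT modulator, ran the other way, from 11.9 and 12.6 to 36.1 and 27.2 CPM.

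Homeostatic genes, which the programme is known to lower, differed between replicates in both directions. Of 11 tested, 7 were higher in replicate 2 in both treatments and 4 lower (medians 0.59 and 0.40), against 42.2 and 40.7% of tested genes. *Sall1*, a transcription factor of microglial identity, was at 12.7 and 10.9 CPM in vehicle and EGCG of replicate 1 and 45.1 and 40.0 in replicate 2, and the lipid receptor *Gpr34* at 14.9 and 23.4 and then 47.6 and 50.1. *Tmem119*, a microglial surface marker, was among the 4 lower ones, at 35.1 and 26.7 CPM in replicate 1 and 11.2 and 11.8 in replicate 2.

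For EGCG against vehicle, 0 of the genes on these 3 lists passed an unadjusted p under 0.05 in edgeR without the block. With the block, 0 of 5 first-step genes passed (median log2 fold change 0.10), 3 of 25 second-step and late genes were higher and 0 lower (median 0.06), and 0 of 11 homeostatic genes were higher and 1 lower (median 0.06), against 3.21% of genes in either direction. The 3 were *Cd9* (0.19, SE 0.07), *Mamdc2*, a proteoglycan gene (0.17, SE 0.06), and *Atp6v0d2* (0.24, SE 0.07). *Sall1* was the lower one (-0.19, SE 0.06). Each moved the same way in 2 of 2 replicates, and each had an edgeR adjusted p of 0.995. The calls differed in DESeq2 with the block, which 1.11% of genes passed. There *Lyz2* was the 1 of 5 first-step genes (0.18, SE 0.06), and 4 of 25 late genes were higher, *Cd9*, *Atp6v0d2*, *Igf1* and *Cd68*, but not *Mamdc2*. Of the homeostatic genes, *Gpr34* was higher and *Sall1* did not pass. Each had a DESeq2 adjusted p of 1.00. *Igf1* and *Cd68* are named after their values were seen. In the fit without the block the first-step genes ran from 0.07 (*B2m*) to 0.19 (*Lyz2*), the late genes from -0.27 (*Dkk2*) to 0.20 (*Atp6v0d2*) and the homeostatic genes from -0.27 (*Tmem119*) to 0.23 (*Gpr34*).

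Of 24 genes on a list for TREM2 and TYROBP signalling, 18 were higher in replicate 2 in both treatments, 3 lower and 3 mixed (medians 0.51 and 0.34). Of all tested genes 42.2% were higher and 40.7% lower, while *Trem2* was lower. The list is wider than the pathway itself, since it also holds related genes such as *Adam10*, *Cd33* and *Card9*. *Syk*, the kinase recruited by TYROBP, was at 339 and 335 CPM in vehicle and EGCG of replicate 1 and at 553 and 504 in replicate 2. *Hcst*, which encodes the adaptor DAP10, was low throughout, at 3.81 and 5.18 and then 3.82 and 4.50 CPM. With EGCG, *Lat2*, a membrane adaptor, was the 1 of 24 that passed in the blocked edgeR fit, higher in 2 of 2 replicates (0.19, SE 0.05, adjusted p = 0.995). That is a share close to the 3.21% of all genes. DESeq2 with the block passed *Lat2* and also *Ms4a7*, named after its value was seen, whose signs were opposite in the replicates (0.45 and -0.02). *Hcst* had the highest and *Syk* the lowest log2 fold change of the list without the block, at 0.34 and -0.09.

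Of 11 tested partners of APOE and LPL, 6 were higher in replicate 2 in both treatments, 3 lower and 2 mixed. Of all tested genes 42.2% were higher in both and 40.7% lower. *Abca1*, the transporter that loads lipid onto APOE, was at 913 and 950 CPM in vehicle and EGCG of replicate 1 and at 2592 and 2351 in replicate 2, the same direction as *Apoe*. *Angptl4*, an inhibitor of lipoprotein lipase, was low, at 2.26 and 1.31 CPM in replicate 1 and 7.86 and 4.75 in replicate 2. It was lower with EGCG in 2 of 2 replicates and was the 1 partner that passed in the blocked edgeR fit (-0.75, SE 0.17, adjusted p = 0.995). It did not pass in DESeq2 with the block, where 0 of 11 did. The all-gene shares are 3.21 and 1.11% for the edgeR and DESeq2 fits. *Clu*, another lipid carrier, had the highest value without the block, 0.16 (SE 0.69).

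All 4 partners of AXL were measured, and 3 were higher in replicate 2 in both treatments while *Axl* was lower. Of all tested genes 42.2% were higher in both and 40.7% lower. Its ligand *Gas6* was at 154 and 168 CPM in vehicle and EGCG of replicate 1 and at 265 and 256 in replicate 2, and the related receptor *Mertk* at 133 and 141 and then 254 and 242. *Axl* and *Mertk* thus differed in opposite directions between the replicates. With EGCG 0 of 4 passed in edgeR with or without the block, where 3.21 and 0.116% of genes did. Values without the block ran from -0.01 (*Mertk*) to 0.02 (*Pros1*, another ligand of the family).

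Of 10 partners of SPP1 and ITGAX, 5 were lower in replicate 2 in both treatments, 3 higher and 2 mixed. Of all tested genes 40.7% were lower in both and 42.2% higher. The osteopontin receptor *Cd44* was at 422 and 390 CPM in vehicle and EGCG of replicate 1 and 366 and 392 in replicate 2. *Itgb2*, the chain that pairs with CD11c, was at 1787 and 1867 CPM and then 959 and 1051. *Itgb3*, an integrin chain of an osteopontin receptor, was the 1 of 10 that passed with EGCG in the blocked edgeR fit (0.25, SE 0.10, adjusted p = 0.995), higher in 2 of 2 replicates and passing in DESeq2 with the block too, against 3.21 and 1.11% of all genes, and its pairing chain *Itgav* had the lowest value without the block, -0.09.

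Of 8 partners of CST7 and GPNMB, 4 were lower in replicate 2 in both treatments, 3 higher and 1 mixed. Of all tested genes 40.7% were lower in both and 42.2% higher. *Ctsc*, a protease that cystatin F inhibits, was at 433 and 397 CPM in vehicle and EGCG of replicate 1 and 962 and 904 in replicate 2, the same direction as *Cst7*. *Mitf*, a transcription factor known to drive *Gpnmb*, was at 135 and 157 and then 124 and 131 CPM. It was the 1 of 8 that passed with EGCG in the blocked edgeR fit (0.15, SE 0.06, adjusted p = 0.995). In DESeq2 with the block *Mitf* did not pass and *Cst3*, cystatin C, was the 1 of 8 that did (0.16, SE 0.07), against 3.21 and 1.11% of all genes in the edgeR and DESeq2 fits. Without the block the list ran from -0.10 (*Ctsc*) to 0.16 (*Cst3*).

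The cells carried microglial and macrophage markers in all libraries, with the 8 markers summing to 5558 and 6128 CPM in vehicle and EGCG of replicate 1 and 8462 and 8149 in replicate 2. Of these 8, 5 were higher in replicate 2 in both treatments, 2 lower (*Itgam* and *Cd68*) and 1 mixed. Over all tested genes 42.2% were higher and 40.7% lower. The highest of the 8 were *C1qa* and *Csf1r*, which weighed most in the sums. *C1qa* went from 1443 and 1688 CPM in replicate 1 to 3155 and 2794 in replicate 2, and *Csf1r* from 1195 and 1264 to 2373 and 2403. Between vehicle libraries *Ptprc*, *Spi1* and *Fcgr3* differed by only 0.16, 0.07 and 0.18 on the log2 scale. *Itgam*, the CD11b chain, was at 404 and 417 CPM in replicate 1 and at 169 and 168 in replicate 2. Markers of other cells also moved with the replicate number or with 1 library. The 7 stromal markers summed to 455 CPM in vehicle replicate 1, 1.44 in EGCG replicate 1, and 160 and 177 in replicate 2, with *Lum* at 0 in EGCG replicate 1. The vehicle libraries alone put 5 of 10 members past a log2 difference of 1 between replicates, against 20.3% of tested genes. This check was added after seeing the data. The stromal sums of the vehicle libraries also differed, at 455 and 160 CPM, so the check cannot set the stromal markers aside. *Spp1* was at 29787 CPM in EGCG replicate 1, and a part of stromal cells in the differences of the members was not tested.

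The 7 astrocyte markers summed to 14.2 to 22.5 CPM and the 8 of the oligodendrocyte lineage to 119 to 160, with *Mog* at 0 in 3 of 4 libraries. The 5 neuronal markers summed to 18.6 and 17.6 CPM in replicate 1, nearly all *Snap25*, and 1.06 and 1.74 in replicate 2, and the 4 endothelial ones to 177 and 176 and then 70.1 and 78.6, with *Cldn5* at 0 throughout. Of the endothelial ones *Flt1* went from 175 and 175 to 53.3 and 64.9 CPM while *Pecam1* went from 0.061 and 0.094 to 15.8 and 13.4. The 5 border macrophage markers summed to 667 and 766 and then 496 and 457 CPM, with *Cd163* at 0 to 0.09. Nearly all of this sum was *Pf4* and *Mrc1*, which ran in opposite directions. *Pf4* went from 451 and 520 to 142 and 130 CPM, while *Mrc1* went from 214 and 245 to 354 and 327. The 5 dendritic cell markers summed to 5.91 to 10.1 CPM, with *Flt3* at 0. The part of these cell types in the differences between replicates was not tested.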

How the data were processed

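Directional poly-A RNA-seq was made from 4 libraries of primary mouse microglia, 2 per group. The authors aligned reads with HISAT2 to GRCm38.p6 and deposited raw counts per gene, 1 table for each replicate number. The counting program and annotation release are not given in the sources used here. The tables were joined by gene identifier. Of the unnamed assembled loci, 697 in the first table and 329 in the second were set aside. The filter kept 13811 protein-coding genes whose counts over all 4 libraries came to 10 or more. TMM factors from these scaled all CPM. Depth was 33805071 to 54970300 counts, so 3 counts correspond to 0.0544 to 0.0936 CPM.

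EGCG was compared with vehicle by edgeR 4.0.16 in R 4.3.3 (quasi-likelihood F test, default dispersion, no covariate, two-sided), with Benjamini-Hochberg adjustment over all genes tested. Alternatives were the replicate number as a block, DESeq2 1.42.0, other normalisations, tests and filters, all gene classes, and leaving out each library. A log2 difference uses a prior count of 2. The replicate numbers were treated as pairs, since each number is 1 deposited table holding a vehicle and an EGCG library. Deviations of same-numbered libraries from their group means correlated with r = 0.64 across 13811 genes, which are not independent, and the EGCG differences of the 2 numbers with r = -0.05. The labels call the replicates independent and do not say whether a number is 1 cell preparation. The fits were tested on simulated data.

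Members and gene lists were chosen with earlier results of these data known. Besides the members, the text names list genes with unadjusted p under 0.05 in edgeR with or without the block, the highest and lowest log2 fold change of each list, and 8 fixed partners. For the marker lists, sums are given, with markers at or near 0, dominating a sum or running against it named after their values were seen. Promoters are from RefSeq (GRCm38.p6).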

Additional observations from a re-analysis of the deposited data

How the results depend on the processing

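With the replicate block, 444 genes had an unadjusted p under 0.05 in edgeR and 153 in DESeq2, and 1 and 2 members passed. Without it, 16 genes passed in edgeR and 24 in DESeq2, with 0 members in each. Over all gene classes, a block added after seeing the data gave 638 and 167 genes and again 1 and 2 members, and edgeR without a block gave 35 genes. The likelihood ratio test gave 78 genes, edgeR's newer dispersion method 38, a filter of 10 counts in every library 3 and filterByExpr 6, with 0 members in each. *Spp1* turned from -0.04 to 0.11 in all 4 blocked fits. *Apoe* turned from -0.01 to 0.024 and 0.017 (edgeR and DESeq2), and to 0.022 and 0.021 over all gene classes. *Axl* turned from 0.04 to -0.00084 with total counts only. Each of these values was smaller than its standard error.

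Leaving out each library in turn, where the lone library of a group was assumed to vary like the other pair, gave 8 to 134 genes, 0 members, and a median of the members from -0.10 to 0.22. The log2 fold change ran from -0.99 to 1.34 for *Spp1*, -0.34 to 0.40 for *Apoe*, -0.26 to 0.53 for *Trem2*, -0.78 to 0.87 for *Cst7*, -0.10 to 0.22 for *Itgax*, -0.84 to 0.86 for *Axl* and -0.67 to 0.89 for *Gpnmb*. The gene count was 8 without EGCG replicate 1, 59 without vehicle replicate 2 and 134 without EGCG replicate 2. Of the members' values under these settings, 135 kept direction and side of the threshold, 23 turned and 6 passed it. With 2 replicates, the interval of each member limits what could be seen.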
